A study of Mus musculus with 8 samples.

Results

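In mouse embryonic stem cells given auxin to deplete CTCF, 502 bins of 50 kb that already replicated early or in the middle of S phase scored earlier still. The bins were chosen by their replication timing scores in the same 4 profiles described here. A bin was included where the auxin mean exceeded the control mean by 0.8 or more, both auxin scores lay above both control scores, and the control mean was -0.5 or higher. Bins also had to lie on an autosome and hold 3 or more windows of the 6-kb grid. The 502 bins are 2.36% of the 21259 autosomal bins of early or middle timing and 1.04% of all 48080 bins. They cover 25.1 Mb.

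The cells are E14Tg2a mouse embryonic stem cells (XY, 129/Ola) or their subclones, with CTCF under an auxin-inducible degron. One group grew for 2 days in medium with 500 µM of an auxin, indole-3-acetic acid, and the control group grew without it. The labels do not describe a degron-free line given auxin, so the effects of auxin and of CTCF loss cannot be told apart. Cells were pulsed with BrdU for 2 hours and sorted into early and late S phase, and the 8 libraries form 4 profiles, 2 per group. Whether the replicates of a group are separate cultures is not stated, and p-values therefore reflect the spread among these profiles alone, part of which may be technical. Scores are on the mm10 build and have no stated unit. Their SD over all windows is 2.10, and a higher score means earlier replication. Read depth is unknown. CTCF protein and RNA were not measured in the files used here, and timing alone does not identify the cells. The bins over the pluripotency genes Pou5f1, Nanog and Sox2 were early in control, with means of 2.97, 2.97 and 2.31. With auxin they averaged 3.33, 3.19 and 2.09, and the bin over Ctcf averaged 3.70 in control and 3.51 with auxin.

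Replication timing is the order in which chromosome segments are copied during S phase. Early segments are usually gene-rich and open, late segments are often gene-poor and attached to the nuclear lamina, and timing transition regions run between them. CTCF binds a long, well-conserved motif, blocks cohesin as it extrudes DNA loops, and thereby sets many borders of topological domains. In embryonic stem cells many developmental genes lie in segments whose timing switches later, during differentiation.

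Since CTCF is the depleted protein, promoters in the advanced bins were searched for a short stretch of its core motif, CNAGGNGGC, on both strands. The full motif is longer, and many matches to so short a stretch need not be bound. Promoters of protein-coding genes came from RefSeq (GRCm38.p6, the coordinates of mm10) and span 250 bases before to 50 after a start site. Of 399 genes that overlap an advanced bin, 323 have a promoter entry, and 232 have a start site inside an advanced bin. Of their 272 promoters 30 held a match, or 11.03%, against 11.3% of promoters in all early and middle bins and 9.96% of all promoters. In the 21 runs of bins named further on, 4 of 54 promoters held a match, at Ell2, Rhobtb3, Timm50 and Phactr4. The sequences that follow show upstream matches at the first 3 of these genes and at the imprinted gene Dio3, which overlaps another advanced run. Each is printed on the gene's strand, and the capitals mark the match.
Ell2, chr13:75707362-75707418, plus strand: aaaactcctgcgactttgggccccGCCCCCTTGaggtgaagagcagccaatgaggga
Rhobtb3, chr13:75943980-75944036, minus strand: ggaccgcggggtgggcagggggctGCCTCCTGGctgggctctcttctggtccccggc
Timm50, chr7:28312214-28312270, minus strand: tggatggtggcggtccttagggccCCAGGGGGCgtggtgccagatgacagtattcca
Dio3, chr12:110279121-110279177, plus strand: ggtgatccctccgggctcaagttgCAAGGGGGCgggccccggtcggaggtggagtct
At Ell2 and Rhobtb3 the match reads on the opposite strand to the gene, and at Timm50 and Dio3 on the gene's own strand. The matches end 89 bases before the start site at Ell2, 179 at Rhobtb3, 191 at Timm50 and 76 at Dio3. Their bins differed by 1.08, 1.14, 0.93 and 0.92 between auxin and control. A match describes letters only, and the share in the advanced bins lay close to that in all early and middle bins.

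Across the 502 bins, the median score was 0.75 in control replicate 1 and 0.75 in control replicate 2, and 1.71 in auxin replicate 1 and 1.71 in auxin replicate 2. The profiles of a group thus had near-equal medians over the 502 bins. Such medians can hide opposite offsets between replicates at single control levels, which are described further on for the controls. Control means ran from -0.50 to 3.49, with a median of 0.75, and auxin means ran from 0.34 to 4.41, with a median of 1.74. The difference had a median of 0.92, from 0.80 to 1.62, and 149 bins differed by 1 or more. In control, 306 of the bins were early (above 0.5) and 196 were middle. With auxin, 483 were early. Over all early and middle bins the median difference was -0.01, and 834 of them were delayed by 0.8 or more with no overlap between groups. The bin with the largest difference lies on chromosome 11 (21000001 to 21050000), with 0.94 and 0.79 in the controls and 2.56 and 2.41 with auxin.

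**Figure D1:**
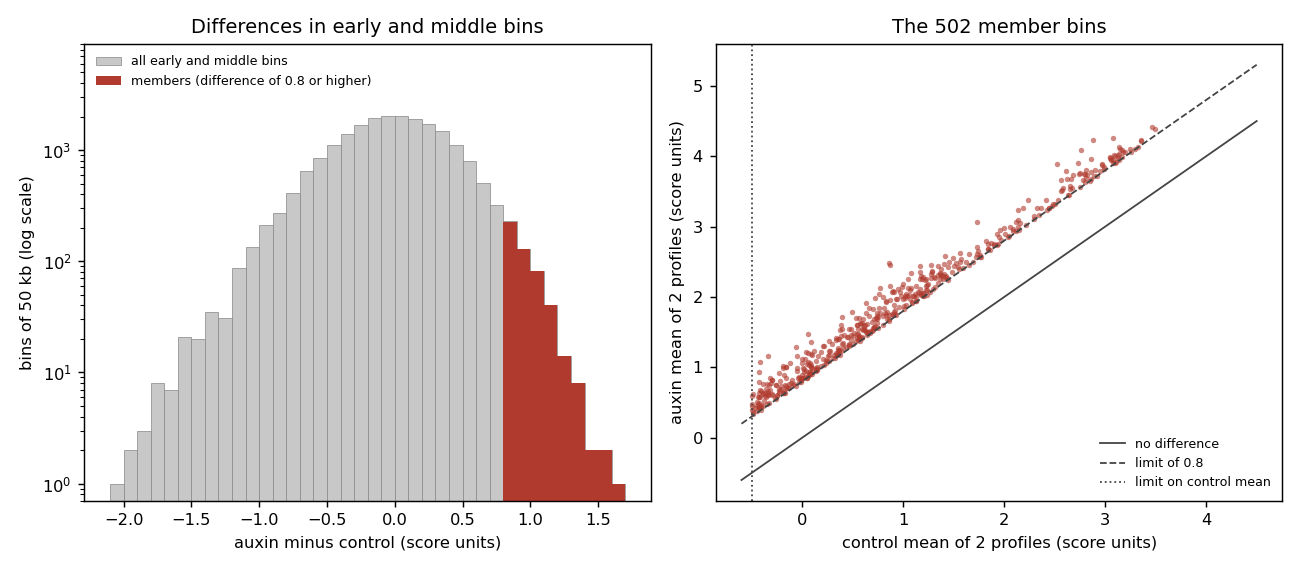
Left, differences between auxin and control means (score units) in all 21259 early and middle bins and in the 502 advanced ones, on a log count axis; right, the auxin mean against the control mean of each advanced bin, each over 2 profiles. The advanced bins are the upper tail of one continuous distribution and reach 1.62.

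The limit of 0.8 falls in a continuous range of values. The bins just inside differed by 0.8001 (chromosome 6, 148500001 to 148550000) and 0.8004 (chromosome 9, 71900001 to 71950000). Those just outside differed by 0.7999 (chromosome 11, 69600001 to 69650000) and 0.7992 (chromosome 10, 79250001 to 79300000). For the control mean, the nearest inside stood at -0.495 (chromosome 17, 22900001 to 22950000) and the nearest outside at -0.501 (chromosome 4, 142500001 to 142550000). Another 5 early or middle bins reached a difference of 0.8 but had overlapping groups, and 5 autosomal bins met the other conditions with fewer than 3 windows. On chromosome X, which the rule leaves out, 41 bins met them.

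In limma over all 42710 bins with 3 or more windows, 130 of the 502 bins passed as earlier (Benjamini-Hochberg adjusted p under 0.05), and 0.637% of all bins did. Bins were chosen on this contrast, so nothing is read from that share. With a trended, robust variance 451 passed, against 5.17% of all bins. The 130 bins lie in 71 runs, and 92 of them lie in runs of 3 or more bins, as do 212 of all 502. All 130 differed by 0.96 or more. Their replicates lay closer together, with a median gap of 0.14 between auxin and 0.12 between control replicates, against 0.23 and 0.18 in the other 372. The limma statistic favours large differences and small gaps, so both contrasts follow from the test. With 1 profile left out, few or none of the bins passed the limma threshold. The median difference of the 502 bins was then 0.92 to 0.95, a description only, since the bins were chosen on these profiles.

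The bins formed 284 runs of adjoining bins, of which 182 were lone bins, 54 held 2 bins and 48 held 3 or more. The longest spanned 750 kb. Runs within 500 kb of each other made 207 loci, and the 5 largest loci held 59 of the bins, or 11.8%. Higher scores with auxin did not end at the edge of a run. Of 561 measured bins that adjoin a run, 551 also had a higher mean with auxin, with a median difference of 0.60. The median difference was 0.33 at 200 kb from the edge, 0.16 at 500 kb and 0.13 at 1000 kb. At 37 of the 284 runs an adjoining bin was a late bin with the same size of difference, so that the advance crossed the border drawn at -0.5.

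The shape of the control profile around each run was described by its flanks at 200 to 400 kb. A run was called a valley where both flanks were earlier than the run by 0.5 or more, a peak where both were later by that much, a slope where one was earlier and the other later, and level where neither differed by 0.5. Of the 284 runs, 76 were valleys, 67 slopes, 37 level and 5 peaks. A further 74 had an earlier flank on one side only, 19 had a later flank on one side only, and 6 lacked a measured flank. Counted by bins, 28.5% of the advanced bins were valleys and 1.99% peaks, against 5.96% and 17.7% of all early and middle bins. Slopes made up 24.9% and 25.1%. The rule used the control and auxin scores that define these shapes, so shapes, depths and displacements are descriptions with no test. In the auxin profiles 13.9% of the advanced bins were valleys and 9.16% peaks. Runs of late bins that advanced by 0.8 or more were valleys in 123 of 309 cases. Runs of early and middle bins delayed by 0.8 or more were valleys in 0 and peaks in 190 of 383.

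**Figure D2:**
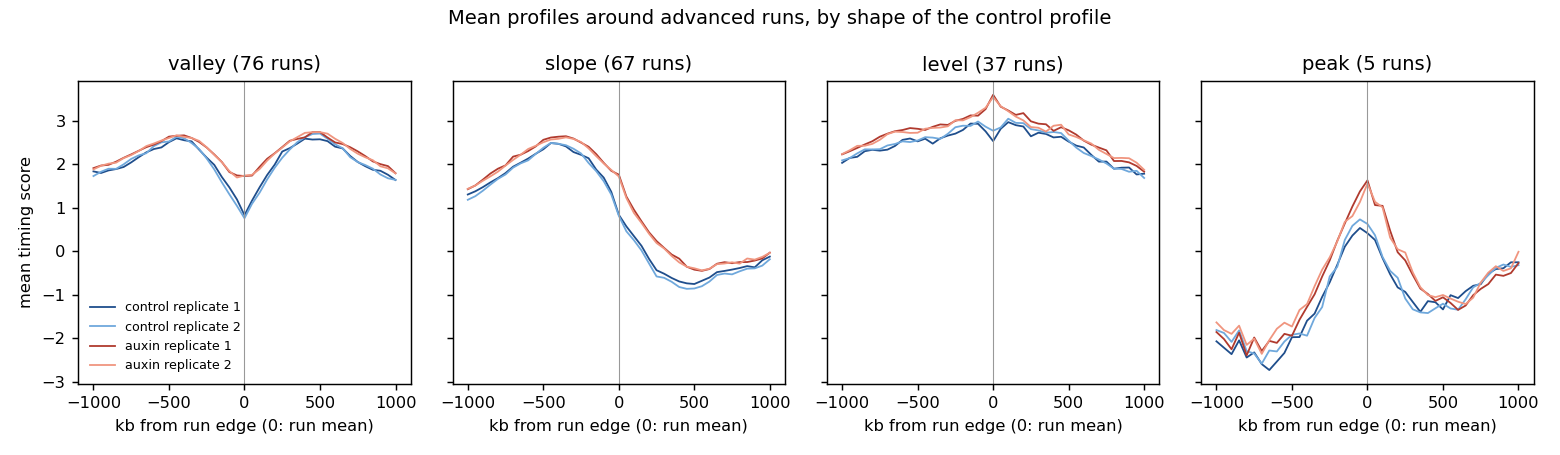
Mean timing score of each of the 4 profiles around runs of advanced bins, by shape of the control profile, against distance in kb from the run's edge (slopes are turned so that the earlier side is on the left). Both auxin profiles lie above both controls at the run, they lie near the controls at the crests that flank a valley, and they stay above them on the later side of a slope.

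At the 76 valleys the dip became shallower with auxin. The flanks exceeded the run by a median of 1.53 and 1.62 in the control profiles and of 0.90 and 0.88 in the auxin profiles. In 75 of the 76 runs both auxin profiles were shallower than both controls. The flanks themselves differed by a median of 0.13, against 0.92 for the runs. Of the 76, 35 were still valleys with auxin, 26 had an earlier flank on one side, 13 were level, 1 was a slope and 1 a peak.

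A deep valley covers 7 genes of the BPI fold family on chromosome 2 (153950001 to 154200000), among them Bpifa6, Bpifb4, Bpifb1 and Bpifa3, whose products are secreted proteins of mucosal surfaces. The 5 bins averaged 0.41 and 0.35 in the controls and 1.55 and 1.54 with auxin, a difference of 1.16 (0.38 ± 0.038 against 1.55 ± 0.0032, SD, n = 2). Both control averages were low and both auxin averages high. These SDs are of averages over the run, in which differences of opposite sign between bins cancel. In single bins the auxin replicates lay up to 0.45 apart, with a median gap of 0.34, and the controls up to 0.13. In control the flanks stood at 3.10 and 3.24. The dip shrank from 2.78 to 1.67, and 3 of the 5 bins passed in limma.

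On chromosome 15 (82450001 to 82700000) a valley holds Cyp2d34, Cyp2d9 and Cyp2d12, cytochrome P450 genes of xenobiotic metabolism, beside Tdg-ps, which the RefSeq table lists as protein-coding. It went from 1.18 and 0.99 in the controls to 2.34 and 2.09 with auxin, and 2 of its 5 bins passed in limma. Its single bins varied more, with a median gap of 0.56 and a largest of 0.78 between the controls. The largest gap between the auxin replicates was 0.73. A longer valley on the same chromosome (58450001 to 58800000) covers Fer1l6, of the ferlin family, Tmem65, which encodes a mitochondrial membrane protein, and Fam91a1, a vesicle-tethering gene. Its 7 bins averaged 0.08 and -0.11 in control and 1.06 and 1.14 with auxin. The control pair straddled 0 while both auxin scores were early, and 6 of the 7 bins passed. Its dip of 2.62 in control fell to 1.46 with auxin.

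At most of the 67 slopes, the timing transition lay further toward the late side with auxin. The point where a profile passed the run's control mean could be found in every profile at 66 runs, and it was displaced toward the later flank by a median of 119 kb (quartiles 84.8 and 170 kb). In 60 of these runs both auxin profiles were displaced beyond both controls. The median gap between replicates was 19.4 kb with auxin and 30.4 kb in control. Displacement went the other way on chromosome 11 (85950001 to 86000000, -395 kb) and chromosome 12 (52300001 to 52350000, -71.7 kb). The crossing nearest the run's centre within 1000 kb was used, and it could lie outside the run. At Rassf10, for example, the control crossings lay at 220 and 71.7 kb. The difference reached into the late side: the later flank differed by a median of 0.59 and the earlier flank by 0.17.

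The longest run of all lies on such a slope, on chromosome 11 (20800001 to 21550000), over Vps54, a subunit of a Golgi tethering complex, Peli1, a ubiquitin ligase gene, Ugp2, the gene of the enzyme that makes UDP-glucose, and Lgalsl, a galectin-like gene. Its 15 bins averaged 0.84 and 0.84 in the controls and 1.97 and 1.96 with auxin, a difference of 1.12. The averages of a group nearly coincided, but single bins varied more, with a median gap of 0.10 and a largest of 0.45 between the controls and of 0.16 and 0.48 between the auxin replicates. The control profile fell from 3.00 on one flank to -0.88 on the other, and the later flank stood at 0.03 with auxin. In limma 10 of its bins passed, with adjusted p-values from 0.0271 to 0.0849 over the run. The transition was displaced by 202 kb.

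On chromosome 13 (45000001 to 45350000), the run over Dtnbp1, which encodes dysbindin, a subunit of a complex that forms lysosome-related organelles, scored 0.43 and 0.37 in control and 1.49 and 1.36 with auxin. The controls were close together and both auxin profiles were more than 0.9 higher, and 4 of 7 bins passed in limma. The displacement came to 391 kb, with crossings at 384 and 365 kb in the auxin and -6.91 and -25.6 kb in the control profiles. A gene-free slope on chromosome 16 (9300001 to 9500000) went from 0.65 and 0.62 to 1.94 and 1.60, with 3 of 4 bins passing. Shorter slopes held Rassf10 on chromosome 7 (112950001 to 113050000), a Ras-association domain gene, at 2.06 and 2.32 in control and 3.35 and 3.26 with auxin, and both bins passed in limma. At Glt28d2, a glycosyltransferase gene on chromosome 3 (85800001 to 85900000), the auxin replicates lay far apart, at 1.41 and 0.61, against -0.17 and -0.04 in control. Neither bin passed, and without auxin replicate 1 the difference of 1.12 was 0.72. A lone slope bin without a gene on chromosome 1 (85000001 to 85050000) went from 0.24 and 0.53 to 1.88 and 1.34.

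**Figure D3:**
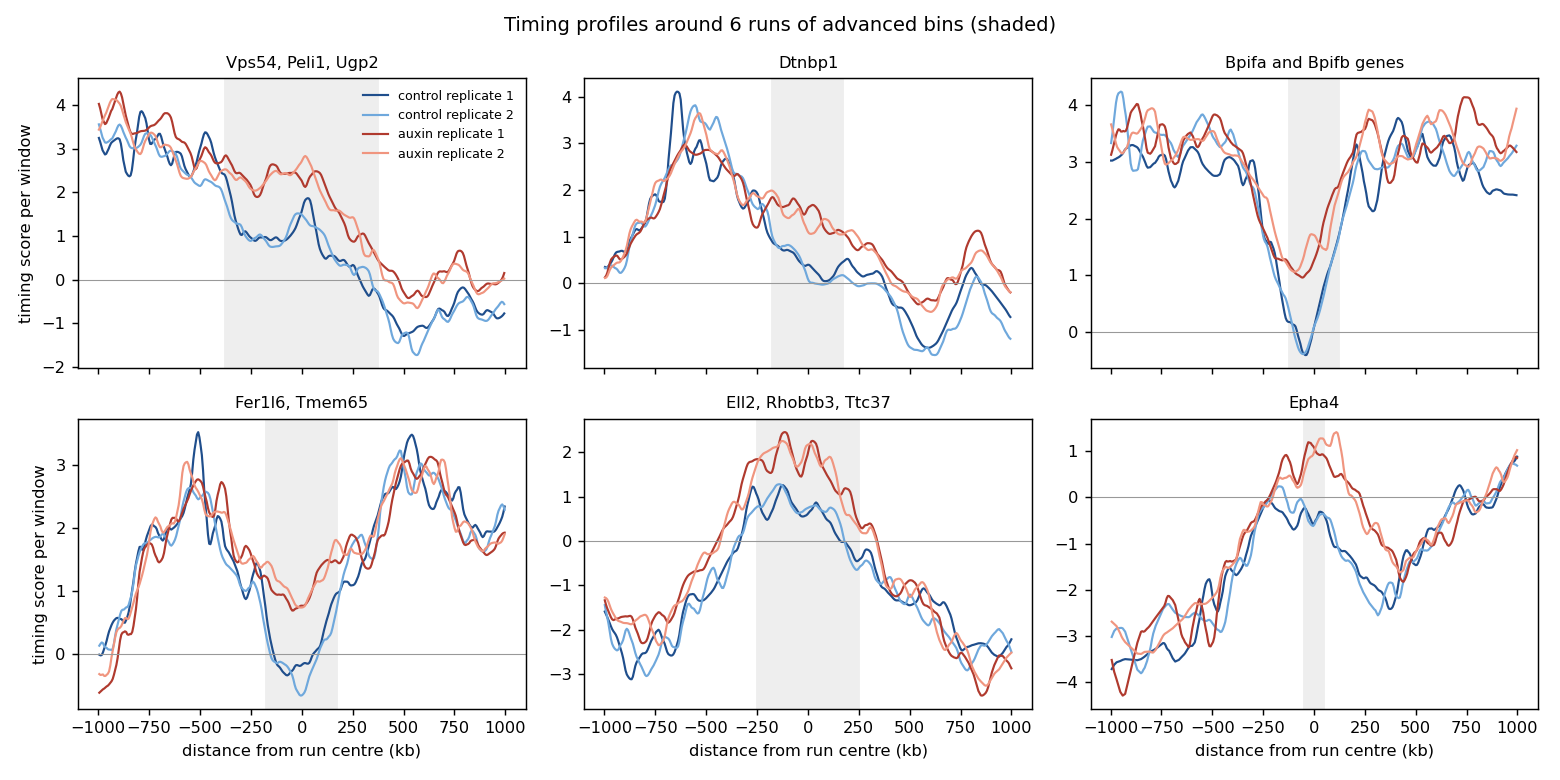
Timing scores per 6-kb window of the 4 profiles within 1000 kb of the centre of 6 named runs, with the run shaded. The dips over the Bpif genes and Fer1l6 are shallower with auxin, the Peli1 and Dtnbp1 slopes lie further to the late side, and the Ell2 and Epha4 peaks stand higher.

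Of the 5 peaks 2 are among the named runs. On chromosome 13 (75700001 to 76200000) a run of 10 bins covers 8 genes, among them Ttc37, a subunit of the SKI complex of RNA decay, Rhobtb3, the transcription elongation factor gene Ell2 and the testis gene Spata9. It went from 0.54 and 0.63 in control to 1.65 and 1.68 with auxin, a difference of 1.08, and 7 bins passed in limma. The flanks were late in control, at -1.42 and -1.45, and also with auxin, at -0.73 and -1.26. The mean profile of each group thus had the peak, at a higher level with auxin. Epha4, the gene of an ephrin receptor that guides axons, lies in a smaller peak on chromosome 1 (77450001 to 77550000). It had the largest difference of any run, 1.43, from -0.40 and -0.45 to 1.02 and 0.99, and both bins passed.

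On chromosome 11 (30200001 to 30600000), 8 bins over Acyp2, an acylphosphatase gene, Sptbn1, which encodes a beta-spectrin of the membrane skeleton, and 4930505A04Rik went from 1.28 and 1.39 to 2.39 and 2.33. Only one control flank was earlier there, and with auxin only one flank was later. In limma 4 of the 8 bins passed. Of the genes outside the named runs, Tmem108 on chromosome 9 had the most bins advanced, 6 of its 7, and Ncald on chromosome 15 had 6 of 9. Both were picked after their values were seen.

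The earliest of the 502 bins differed from the middle ones in run length, gene content and replicate gaps. Of the 70 bins with a control mean of 2.5 or higher, 48 were lone bins, against 51 of the 196 middle bins, and no run among them exceeded 2 bins. They held 1.91 protein-coding genes per bin on average, against 1.84 in all bins of that level, and 0.75 in the advanced middle bins. Their replicates lay further apart, with a median gap of 0.29 in control and 0.31 with auxin, against 0.15 and 0.18 in the middle bins. All bins with a control mean from 2.5 to 3.5 had median gaps of 0.32 and 0.23. A wide gap between controls is thus not particular to the advanced bins of that level. Control replicate 2 was the higher control in 54 of the 70, and in 58 of the 196 middle bins, and the share in all bins of these levels was not computed. Fewer than 7 windows were present in 51.4% of the 70, against 24.6% of all bins of that level. In limma 6 of the 70 passed, compared with 61 of 196 middle bins, 58 of 174 bins from 0.5 to 1.5 and 5 of 62 from 1.5 to 2.5. With the trended, robust variance these counts were 21, 196, 174 and 60. The share of all bins that passed at each level was not computed, so nothing is read from these counts.

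The 5 runs of 2 or more bins with the highest control means held 1 to 9 protein-coding genes each. The run over Mef2d, a MADS-box transcription factor gene, and Rhbg, an ammonium transporter gene, on chromosome 3 (88150001 to 88250000) scored 3.04 and 3.56 in control and 4.30 and 4.01 with auxin. On chromosome 11 (78150001 to 78250000), Supt6, a transcription elongation factor gene, Proca1, the ciliary kinase gene Nek8 and Fam222b stood at 2.87 and 3.38 against 4.06 and 4.05. In both runs the control replicates were about as far apart as 0.5, with replicate 1 the lower, and no bin passed in limma. Without control replicate 1 the difference fell from 0.86 to 0.59 over Mef2d and from 0.93 to 0.68 over Supt6. At the clathrin adaptor gene Ap1b1 on the same chromosome (4950001 to 5050000) the controls were close, at 3.06 and 3.06, and auxin scores were 3.81 and 4.17. Neither of its bins passed in limma, and without auxin replicate 2 the difference of 0.93 was 0.75.

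In further early runs control replicate 1 was likewise the low profile, and the difference was smaller without it. On chromosome 7 (127450001 to 127550000), Srcap, which encodes a remodeller that deposits H2A.Z, Fbrs and Prr14 scored 2.51 and 3.34 in control and 3.78 and 3.82 with auxin. The difference of 0.87 was 0.46 without control replicate 1. On chromosome 15 (79000001 to 79100000), Eif3l, a translation initiation factor gene, Gcat, an enzyme gene of threonine breakdown, Ankrd54 and Triobp scored 2.69 and 3.42 in control and 3.82 and 4.05 with auxin, and 0.88 became 0.52. The run with Supt5, whose product holds back and then assists RNA polymerase, the Notch ligand gene Dll3, Selenov and the mitochondrial import gene Timm50 on chromosome 7 (28250001 to 28350000) scored 2.58 and 3.23 in control and 4.14 and 3.92 with auxin, and 1.13 became 0.80. None of these 3 runs had a bin that passed in limma.

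Other early bins passed in limma, which is a description only, since all these bins were chosen on the same contrast. Ern1, the gene of the endoplasmic reticulum stress sensor IRE1, went from 2.58 and 2.76 to 3.80 and 3.78 on chromosome 11 (106400001 to 106500000), and 1 of 2 bins passed. The lone bin with the largest difference, 1.35, covers Phactr4, a phosphatase and actin regulator gene, on chromosome 4 (132400001 to 132450000), at 2.71 and 3.06 in control and 4.20 and 4.27 with auxin. The bin was a valley in control and a peak with auxin (limma adjusted p of 0.0359). The bin over D630045J12Rik on chromosome 6 (38200001 to 38250000) went from 1.61 and 1.87 to 2.80 and 3.34 (limma adjusted p of 0.0417). Both auxin scores exceeded both control scores in these bins, as the rule requires.

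**Figure D4:**
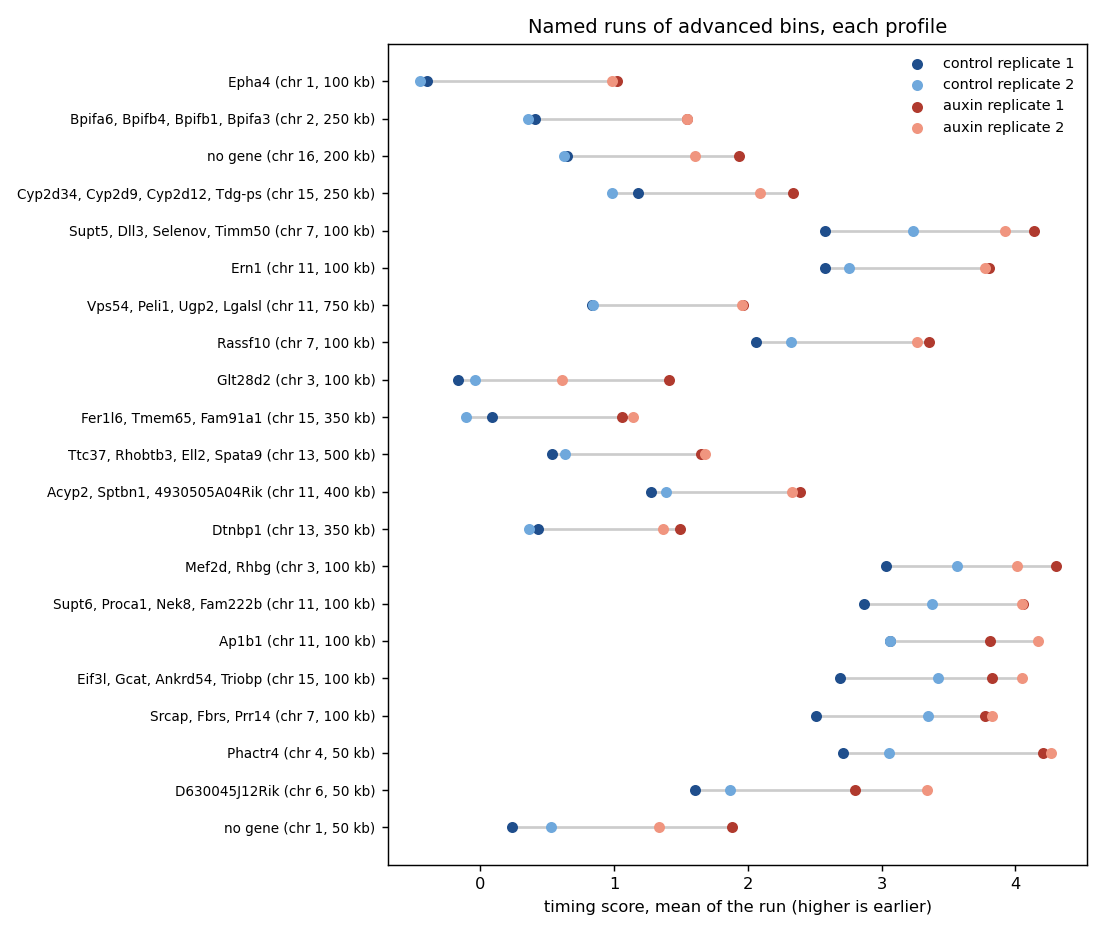
Mean timing score of each of the 4 profiles in the 21 named runs, 1 row per run with its genes, chromosome and length. Points are run averages, which hide opposite differences between single bins. The 2 controls lie well apart in early runs such as those over Srcap and Eif3l.

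Gene content differed by control level. An advanced bin held 1.01 protein-coding genes on average and 28.7% of bins held none, against 1.29 and 20.2% in all early and middle bins. Within levels the means were nearer, at 0.75 against 0.83 in middle bins, 0.91 against 1.03 from 0.5 to 1.5, 1.13 against 1.25 from 1.5 to 2.5 and 1.91 against 1.84 from 2.5. Bins without a gene made up 36.2% against 35.5%, 33.3% against 24.1%, 16.1% against 17.0% and 7.14% against 8.81% at these levels. Genes that overlap an advanced bin had a median length of 31.2 kb, against 19.1 kb in all early and middle bins. The median was 32.8 kb for the delayed bins and 92.2 kb for the late bins that advanced. A longer gene spans more bins and more often overlaps a selected one, so length is not read as a trait of the advanced bins. At 67 of the 284 runs no protein-coding gene was present. The promoters had a median GC content of 57.0% and 13 CpG dinucleotides in 300 bases, against 59.0% and 17. Of the 399 genes, 183 lay in advanced bins along their whole measured length. The bins delayed by 0.8 or more had 1.10 genes on average and 23.1% without a gene, and the late bins that advanced had 0.60 and 47.4%.

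By chromosome, the share of early and middle bins that advanced was highest on chromosomes 15 (4.36%, 40 bins), 11 (4.08%, 61 bins) and 9 (3.65%, 46 bins). It was lowest on chromosomes 14 (0.689%, 6 bins) and 17 (0.999%, 9 bins). By control level, it was 4.10% from -0.5 to 0.5, 3.60% from 0.5 to 1.5, 1.29% from 1.5 to 2.5, 1.21% from 2.5 to 3.5, and none of the 1026 bins at 3.5 or higher. Delayed bins made up 5.62%, 4.46%, 4.07%, 2.18% and 2.63% of the same levels.

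Genes of several listed groups were set against the bins. Here and in the lists that follow, measured genes of any timing and chromosome were counted. A gene on chromosome X or only in late bins could not overlap an advanced bin under the rule. Shares and absences are therefore in part fixed by the rule and are not read as traits of a list. Of all 20364 measured protein-coding genes, 399 (1.96%) overlapped an advanced bin, 154 a bin that passed in limma as earlier and 268 one that passed as later, with 1.02% of all bins later. None of 28 pluripotency genes, 18 CTCF and cohesin genes, 28 genes of replication origins and timing or 57 clustered protocadherin genes overlapped an advanced bin, and none of them a bin that passed in limma in either direction. Their median differences were 0.16, 0.09, -0.02 and -0.03, against 0.00 over all genes.

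Of 33 imprinted genes only Dio3, which encodes the deiodinase that inactivates thyroid hormone, overlapped one. Its bin went from 1.41 and 1.36 in control to 2.36 and 2.25 with auxin (limma adjusted p of 0.0532). The run around it (chromosome 12, 110150001 to 110300000) averaged 0.75 ± 0.15 in control and 1.79 ± 0.12 with auxin (SD, n = 2). In the list as a whole, 1 gene overlapped a bin that passed as earlier and 2 one that passed as later.

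Of 39 Hox genes, which pattern the body axis, Hoxb3, Hoxb4, Hoxb5 and Hoxb6 share 1 advanced bin. Its controls were 2.40 and 3.57, and its auxin scores were 3.73 and 3.90. The control replicates differed by more than the groups did, and the bin did not pass in limma (adjusted p of 0.181). The same bin holds the microRNA gene Mir10a, 1 of 17 microRNA hairpin entries in advanced bins. Another is Mir9-1, whose mature product acts in neural progenitors, in a bin of the Mef2d run at 3.40 and 3.58 in control and 4.48 and 4.30 with auxin. Mir1247 lies in the bin of Dio3, and Mir6352 in the Epha4 run.

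Of 958 olfactory receptor genes 12 (1.25%) overlapped an advanced bin, 8 of them on chromosome 7 or 11 in bins with a control mean below 1, and 2 of 232 vomeronasal receptor genes (0.862%) did, beside 1.96% of all genes. Counted over bins of any timing, 11 olfactory receptor genes (1.15%) overlapped one that passed in limma as earlier, beside 0.756% of all genes, and 1 overlapped one that passed as later. No vomeronasal receptor gene overlapped either kind. Olfr46, Olfr53 and Olfr61 share a bin that went from 0.49 ± 0.064 to 1.54 ± 0.19 (SD, n = 2, limma adjusted p of 0.0466). Olfr536 stood at -0.44 in control and 0.48 with auxin. Olfr538 stood at -0.33 and 0.75, with an SD of 0.64 between its auxin profiles. Olfr410 and Olfr411 share a bin at 0.14 and 1.09, Olfr520 and Olfr521 lie in bins at 0.89 and 1.09 in control and 1.76 and 1.91 with auxin, Olfr1337 and Olfr1338 share one at 1.22 and 2.10, and Olfr19 stood at 2.05 and 2.87. These bins did not pass in limma. Of the vomeronasal genes, Vmn2r113 stood at -0.50 and 0.48. Vmn1r184 had auxin scores far apart, 1.40 and 0.31, against 0.03 and -0.08 in control. Of 77 ribosomal protein genes, Rpl23a overlapped one, at 3.15 and 4.10. Of 100 developmental signalling genes, Epha4 and Dll3 did, and of 351 zinc finger genes Zfp827, Zfp947 and Zfp994 did. The bins over Zfp827 went from 0.75 to 1.73 (smallest limma adjusted p of 0.0491), and the other two genes stood at -0.29 and -0.12 in control and at 0.62 and 0.74 with auxin, with no bin passing.

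A list by the authors names 22 regions as earlier with auxin, drawn from these same profiles. In the authors' deposited table, 11 of the regions lie on autosomes with a control mean of -0.5 or higher. At least 50% of the length of 12 regions fell in advanced bins, and regions covered at least 50% of 28 of the 502 bins, or 5.58%. At least 1 base of 37 bins (7.37%) fell in a region, and the other bins lie outside that list. Each region holds 23 windows, against a median of 8 in an advanced bin, and the list was not made with the rule used here. The overlap therefore compares unlike units and limits. Of the named runs, those over Peli1, Ell2, Fer1l6, the Bpif genes and Epha4 and the gene-free slope on chromosome 16 overlap it.

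When the rule was applied with each profile left out in turn, 200 of the 502 bins (39.8%) met it every time. Of middle bins 78 of 196 did so, of bins from 0.5 to 1.5 89 of 174, of bins from 1.5 to 2.5 20 of 62, and of bins at 2.5 or higher 13 of 70. With bin edges moved by 25 kb the rule found 502 bins again, and 440 of the original bins overlapped one of them. Taking the median of a bin's windows in place of the mean kept 477.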

How the data were processed

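Early and late S-phase Repli-seq libraries were made for 2 auxin and 2 control replicates. Bowtie2, SAMtools, bedtools and the mm10 build are named in the submitters' processing notes. The sources used here give no versions or filters, and neither the smoothing nor how early and late reads become one score. The authors deposited timing scores per window and quantile normalized them, per the file headers; the 4 sorted columns are identical. A genome-wide shift or change of contrast cannot be seen in such scores. Neighbouring windows may share reads. Column names gave group and replicate, and no label names a batch. No file gives counts, so no depth interval was set.

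Scores were averaged in bins of 50 kb. The test was limma 3.58.1 in R 4.3.3, auxin against control (lmFit and eBayes, treatment only) over all 42710 bins with 3 or more windows, with Benjamini-Hochberg adjustment; the fit was tested on simulated data. Runs are adjoining members, and SDs are over 2 profiles. Named runs are the 10 of 2 or more bins with the largest difference, the 5 longest, the 5 of 2 or more bins with the highest control mean, and the 3 lone bins with the largest difference, each with up to 4 genes by overlap. Genes of the lists that overlap a member are named as well. Gene positions and promoters came from RefSeq tables of GRCm38.p6. The members and lists were chosen with earlier results of these data known.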

Additional observations from a re-analysis of the deposited data

How the results depend on the processing

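The limma fit called 272 bins earlier, of which 130 are members. These counts depended on the variance model: a trended, robust variance called 2209 and 451, and fitting every bin with at least 1 window called 1 and 0. In that last fit 501 members and 4461 of all 48080 bins were earlier at an unadjusted limma p under 0.05. Members were chosen on this contrast, so nothing is read from the 501. With the median of the windows the counts were 69 and 25. Leaving out 1 profile gave 0 to 48 bins and 0 to 7 members. With a replicate block they were 1067 and 455. The labels do not tie replicates together by number, and deviations of same-numbered profiles correlated by 0.038 over bins, with only 2 pairs, so the block is not read as a pairing. The rule found 149 bins with a difference of 1 or higher, 602 to 795 with 1 profile left out, 473 with at least 6 windows and 529 with the median of the windows. In the 21 named runs the difference kept its sign in all 105 recomputations. For the 84 with 1 profile left out the rule fixes that sign in advance, so only the size is informative. Without control replicate 1 the difference fell from 0.87 to 0.46 at Srcap and from 0.88 to 0.52 at Eif3l. Without auxin replicate 1 it fell from 1.12 to 0.72 at Glt28d2. Valley runs numbered 64 with flanks at 100 to 300 kb and 102 with a limit of 0.3. Depth is unknown, and with 2 profiles per group small differences could not be called.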
